A study of Mus musculus with 15 samples.

Results

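The 10 genes described here are products and transcription factors of goblet cells, the mucus-secreting cells of the intestinal lining: Clca1, Zg16, Muc2, Fcgbp, Tff3, Agr2, Spink4, Spdef, Foxa3 and Creb3l1. They were chosen by name, with earlier results of these data known, out of 52844 genes in the summed tables, and all 10 passed the filter on low counts that left 14968 genes to test. RNA was measured by bulk sequencing of polyadenylated RNA from jejunal epithelial cells of 15 CC027/GeniUnc mice, a Collaborative Cross strain, in 5 groups of 3. The PBS mice received PBS by gavage in each of 4 weekly doses and were not challenged. The sensitized controls received peanut extract instead, 2 mg a week for 3 weeks and 5 mg in week 4, and were not challenged either. The challenged mice were sensitized in the same way, received 12 mg of peanut extract by gavage and were killed 30, 60 or 120 min later. The labels give neither age nor sex, and PBS-treated mice given a peanut challenge were not analysed here. The time since a gavage and the peanut itself therefore cannot be told apart in the comparisons after challenge.

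Goblet cells package Muc2, a gel-forming mucin, into granules and release it as the gel that covers the villi. Fcgbp, Clca1 and Zg16 are secreted into the same gel, and Tff3 is a small trefoil peptide released with it. Agr2 is a protein disulfide isomerase of the endoplasmic reticulum that Muc2 needs for its folding. Spdef, an ETS factor, Foxa3, a forkhead factor, and Creb3l1, a membrane-bound bZIP factor, act in the maturation of the lineage.

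The libraries held 15661513 to 22691349 estimated counts in total, and mitochondrially encoded genes took 13.8% (120 min replicate 1) to 33.2% (60 min replicate 3) of them. The 10 genes together took 0.764% to 1.80% of the counts, with the highest share in PBS replicate 1. The lowest count of any of them in a library was 163 reads, for Foxa3 in 120 min replicate 2, so counting error was small beside the spread between mice. Epithelial markers were at 10166 to 14305 CPM (counts scaled to a common library total) in sum in every library, and all 10 goblet genes were detected in each. Replicate numbers only name the libraries. In bulk RNA, fewer goblet cells and less RNA per goblet cell cannot be told apart.

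RefSeq's promoter table for GRCm38.p6 held windows for 5 of the 10 genes. All 5 are shown, since Muc2 and Fcgbp form the gel, Agr2 is the helper of Muc2 folding, and the factors Spdef and Foxa3 had among the smallest adjusted p after challenge. Each run ends at the base before the outermost start that RefSeq or GENCODE M21 gives, which for Foxa3 is RefSeq's. Capitals mark matches, on either strand, to 8 short motifs named after the sequences.
Muc2, chr7:141690090-141690339, plus strand: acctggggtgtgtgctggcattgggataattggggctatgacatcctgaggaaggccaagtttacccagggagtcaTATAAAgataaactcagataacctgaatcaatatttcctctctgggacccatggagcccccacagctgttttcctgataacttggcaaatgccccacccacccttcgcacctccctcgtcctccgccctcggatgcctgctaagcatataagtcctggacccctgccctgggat
Fcgbp, chr7:28070986-28071235, plus strand: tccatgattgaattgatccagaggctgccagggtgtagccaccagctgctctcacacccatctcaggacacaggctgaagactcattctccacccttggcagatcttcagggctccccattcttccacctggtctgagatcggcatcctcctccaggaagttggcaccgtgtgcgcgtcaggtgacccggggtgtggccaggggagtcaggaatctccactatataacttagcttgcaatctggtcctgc
Agr2, chr12:35992675-35992906, plus strand: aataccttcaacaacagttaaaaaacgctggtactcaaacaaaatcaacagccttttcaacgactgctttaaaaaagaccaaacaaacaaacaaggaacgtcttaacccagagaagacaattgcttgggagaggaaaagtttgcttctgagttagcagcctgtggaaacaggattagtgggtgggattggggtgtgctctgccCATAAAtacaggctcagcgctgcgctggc
Spdef, chr17:27728956-27729201, minus strand: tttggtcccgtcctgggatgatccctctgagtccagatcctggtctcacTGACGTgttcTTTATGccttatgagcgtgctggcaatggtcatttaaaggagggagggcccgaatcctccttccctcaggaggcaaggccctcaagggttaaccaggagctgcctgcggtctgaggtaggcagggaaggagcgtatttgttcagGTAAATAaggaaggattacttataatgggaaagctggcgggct
Foxa3, chr7:19023540-19023789, minus strand: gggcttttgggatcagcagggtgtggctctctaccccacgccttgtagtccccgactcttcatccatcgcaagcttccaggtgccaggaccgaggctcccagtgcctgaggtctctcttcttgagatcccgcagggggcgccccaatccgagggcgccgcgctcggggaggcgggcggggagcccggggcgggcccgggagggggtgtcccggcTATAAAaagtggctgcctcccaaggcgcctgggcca
The TATA box was searched as TATAAA, which 12.3% of the 32536 promoter windows in the RefSeq table held. These letters lay 174 bases before the start of Muc2 and 36 bases before that of Foxa3. Other TATA-like runs were not searched, so the matches do not place the TATA box of a gene. The motif of CDX factors was searched as TTTATG, held by 10.8% of all windows. It lay 187 bases before the start of Spdef and, on the opposite strand from the one printed, 29 bases before that of Agr2. The motif of bZIP factors was searched as TGACGT, held by 6.50% of all windows, and it lay 197 bases before the start of Spdef. Forkhead factors were given a pair of motifs. The first of them, TATTTAC, was held by 2.72% of all windows and lay on the opposite strand 43 bases before the start of Spdef. The other, TGTTTAC, was held by 3.17% of all windows and by none of these. For ETS factors the letters CCGGAA were held by 12.1% of all windows, and the alternative form CCGGAT was held by 4.98% of them. For GATA factors the letters GATAAG were held by 6.42% of windows. None of these last 3 motifs was in the 5 windows, and the Fcgbp window held 0 matches in all.

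All 10 are protein-coding genes of GENCODE M21 (GRCm38). On the deposited TPM scale, which allows for transcript length, Zg16 had the highest median level over the 15 libraries with 3737 TPM, followed by Tff3 with 2421, Muc2 with 1001, Spink4 with 853, Fcgbp with 614, Agr2 with 524 and Clca1 with 220. The transcription factors were far lower, with 21.1 TPM for Spdef, 14.8 for Creb3l1 and 9.07 for Foxa3. The lowest Clca1 level, 111 TPM, exceeded the highest Spdef level, 30.1 TPM, and this was the only pair of neighbours in that order whose ranges did not overlap. Zg16 exceeded Tff3, and Creb3l1 exceeded Foxa3, in all 15 libraries, while Muc2 exceeded Spink4 in 9 of 15. The place of Muc2 is uncertain. Its 7 annotated transcripts are only 241 to 2926 bases long, short for a gel-forming mucin. The transcript of 241 bases took a median of 29.2% of its TPM on a median of 251 reads, and the one of 2926 bases took 19.1% on 10602 reads. Clca1, Tff3, Foxa3 and Creb3l1 each had all of their TPM on 1 transcript.

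No gene of the 10 passed edgeR's quasi-likelihood test at an adjusted p under 0.05 in any comparison. At 120 min after challenge all 10 had negative log2 fold changes against the sensitized controls, with a median of -0.75. For 8 of the 10 each challenged library lay below each control library, and 13.3% of all genes tested were lower without overlap in this comparison. Clca1, Spdef and Foxa3 had adjusted p between 0.0871 and 0.0988 at that time, when 1.26% of all genes passed. At an unadjusted p under 0.05 the counts were 0 of 10 for sensitization and 1, 4 and 5 of 10 at 30, 60 and 120 min, against 1.42%, 5.04%, 12.6% and 17.7% of all genes (either direction). The background for a negative sign at 120 min was 50.7% of genes, and the median over all genes tested was -0.01.

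**Figure D1:**
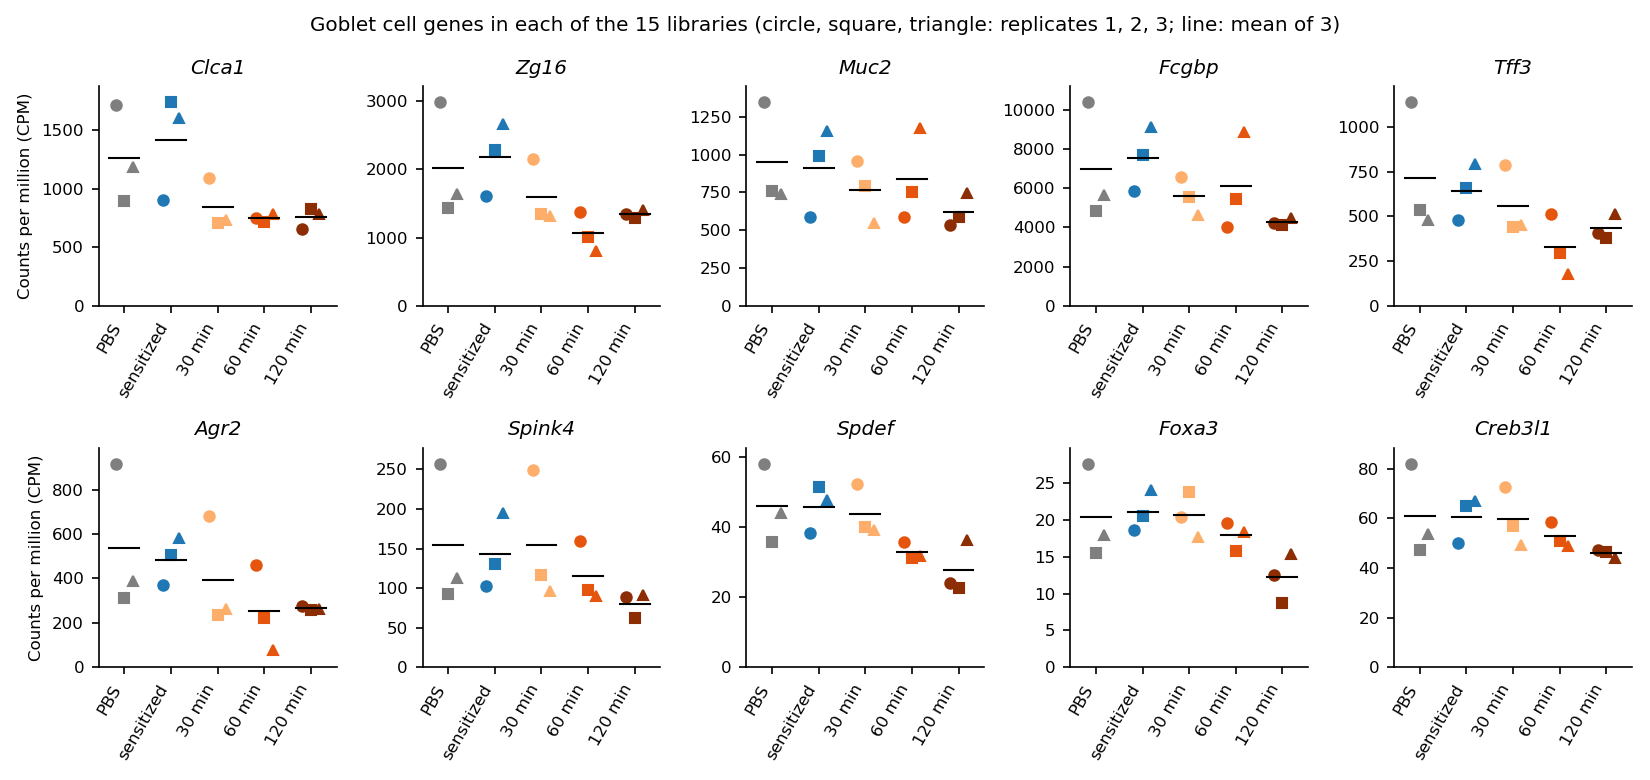
CPM (y axis, linear from 0) of each goblet cell gene in the 15 libraries, by group (x axis). Points are single libraries and lines are means of 3. The 120 min libraries lie below all 3 sensitized controls for every gene except Muc2 and Tff3, and PBS replicate 1 is the highest library for 9 of the 10 genes.

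Before challenge, sensitization was not associated with a detectable difference in any of the 10. Log2 fold changes of sensitized against PBS mice ran from -0.16 for Tff3 to 0.16 for Clca1, with a median of -0.01. The signs were negative for 6 of the 10, with 48.4% of all genes negative. The groups overlapped for all 10 genes, while 4.1% of all genes were lower without overlap, and 0% of all genes tested passed in this comparison. The PBS group was spread widely because PBS replicate 1 stood above replicates 2 and 3 for every gene. Agr2 was at 916, 310 and 388 CPM in the 3 PBS libraries, and Fcgbp was at 10376, 4851 and 5630 CPM. PBS replicate 1 also held the highest summed level of Paneth cell markers in its group, 7150 CPM against 4615 and 5044 CPM, and the lowest of enterocyte markers, 10749 CPM against 23350 and 17910 CPM. The part of these cells in its goblet gene levels was not tested. Without that library the median became 0.39, with positive values for all 10 genes, and still no gene passed.

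Among the secreted proteins of the gel, Clca1 had the most even difference after challenge. This metalloprotease of the mucus layer was at 901, 1740 and 1610 CPM in the sensitized controls and at 1090, 705 and 734 CPM at 30 min. At 60 min it was at 748, 720 and 782 CPM and at 120 min at 659, 825 and 783 CPM. All 6 libraries of the later times lay below the lowest control, whereas at 30 min 1 library lay between the controls. The log2 fold changes were -0.75 ± 0.26 (SE) at 30 min, -0.92 ± 0.26 at 60 min and -0.91 ± 0.26 at 120 min, with adjusted p of 0.941, 0.227 and 0.0922. Over the mean of the 3 times the value was -0.86 ± 0.20 with an unadjusted p of 0.000597 and an adjusted p of 0.207. In that comparison all 10 genes were negative with a median of -0.47, 52.5% of all genes were negative and 0% passed. Clca1 was also at 895 to 1717 CPM in the PBS mice, and its log2 fold change at 120 min against them was -0.74.

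Zg16, a lectin-like protein that binds bacteria in the mucus, was at 1604, 2283 and 2661 CPM in the sensitized controls. It was at 2153, 1343 and 1312 CPM at 30 min, at 1382, 1006 and 807 CPM at 60 min and at 1342, 1293 and 1399 CPM at 120 min. The 60 min and 120 min libraries all lay below the controls. The log2 fold changes were -0.45 ± 0.29 at 30 min, -1.04 ± 0.29 at 60 min and -0.70 ± 0.29 at 120 min, with adjusted p of 0.981, 0.227 and 0.223.

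Muc2 was at 586, 988 and 1158 CPM in the sensitized controls and at 957, 791 and 546 CPM at 30 min. It was at 588, 750 and 1178 CPM at 60 min, when replicate 3 exceeded every control, and at 534, 584 and 747 CPM at 120 min, when only 2 of 3 libraries lay below every control. The log2 fold changes were -0.25 ± 0.32, -0.12 ± 0.32 and -0.55 ± 0.32 at the 3 times, with adjusted p of 0.988, 0.915 and 0.396. Fcgbp, a large protein bound to Muc2 in the gel, was at 5848, 7695 and 9113 CPM in the controls, at 6575, 5561 and 4646 CPM at 30 min, at 4002, 5460 and 8864 CPM at 60 min and at 4234, 4121 and 4485 CPM at 120 min. Its 120 min libraries were close together and all below the controls, while at 60 min replicate 3 lay within the control range. The log2 fold changes were -0.43 ± 0.30, -0.31 ± 0.30 and -0.82 ± 0.30, with adjusted p of 0.981, 0.704 and 0.175.

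Tff3, which acts in epithelial repair, was at 477, 659 and 794 CPM in the sensitized controls, at 789, 438 and 453 CPM at 30 min, at 513, 298 and 179 CPM at 60 min and at 406, 380 and 511 CPM at 120 min. At 60 min and at 120 min 1 library lay within the control range. The log2 fold changes were -0.20 ± 0.41, -0.96 ± 0.41 and -0.57 ± 0.41, with adjusted p of 0.992, 0.361 and 0.500. Spink4, a small secreted protein with a Kazal domain, was at 103, 130 and 195 CPM in the controls, at 249, 116 and 96.9 CPM at 30 min, at 160, 98.1 and 89.5 CPM at 60 min and at 88.4, 62.6 and 90.8 CPM at 120 min. It was the only gene of the 10 with a positive value at 30 min, 0.11 ± 0.44, which rested on replicate 1, and its log2 fold change was -0.30 ± 0.44 at 60 min and -0.83 ± 0.45 at 120 min (adjusted p of 0.820 and 0.365). That 30 min library was the highest of its group for every gene of the 10 except Foxa3. It also held stromal and endothelial markers at 204 CPM in sum, against 2.15 to 11.1 CPM in the other libraries, and their part in its goblet gene levels was not tested. Without it the 30 min median over the 10 genes was -0.48, with all 10 negative and none passing.

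Agr2 varied most between libraries, by 12.0-fold from the lowest to the highest, where Creb3l1 varied by 1.86-fold. It was at 368, 505 and 583 CPM in the sensitized controls, at 682, 234 and 262 CPM at 30 min, at 460, 223 and 76.4 CPM at 60 min and at 276, 259 and 264 CPM at 120 min. The 3 libraries of 120 min were close together and below all controls, and at 60 min replicate 3 lay far below the other two. The log2 fold changes were -0.31 ± 0.61, -0.94 ± 0.61 and -0.87 ± 0.61, with adjusted p of 0.992, 0.554 and 0.501. With only the 120 min and sensitized libraries in the fit the adjusted p was 0.0471, in a fit that called 134 of 13732 genes.

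The transcription factors were at nearly the same level at 30 min as in the controls, with log2 fold changes of -0.06 for Spdef, -0.03 for Foxa3 and -0.02 for Creb3l1. Spdef was at 38.2, 51.4 and 47.6 CPM in the sensitized controls, at 52.3, 39.9 and 39.0 CPM at 30 min, at 35.7, 31.1 and 31.8 CPM at 60 min and at 24.1, 22.7 and 36.2 CPM at 120 min. Every library of the 2 later times lay below every control and every 30 min library. Its log2 fold changes were -0.48 ± 0.20 at 60 min and -0.72 ± 0.20 at 120 min, with adjusted p of 0.348 and 0.0871.

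Foxa3 was at 18.6, 20.5 and 24.1 CPM in the sensitized controls, at 20.4, 23.8 and 17.7 CPM at 30 min, at 19.6, 15.8 and 18.4 CPM at 60 min and at 12.6, 8.69 and 15.4 CPM at 120 min. The 120 min libraries were below all the others of these groups. Its log2 fold change was -0.23 ± 0.23 at 60 min and -0.78 ± 0.23 at 120 min, with adjusted p of 0.705 and 0.0988. Creb3l1 was at 49.9, 64.9 and 66.9 CPM in the controls, at 72.6, 56.9 and 49.1 CPM at 30 min, at 58.4, 51.0 and 48.7 CPM at 60 min and at 47.4, 46.6 and 44.0 CPM at 120 min. Its 120 min libraries lay just below the lowest control, and the log2 fold change was -0.40 ± 0.19 with an adjusted p of 0.291.

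**Figure D2:**
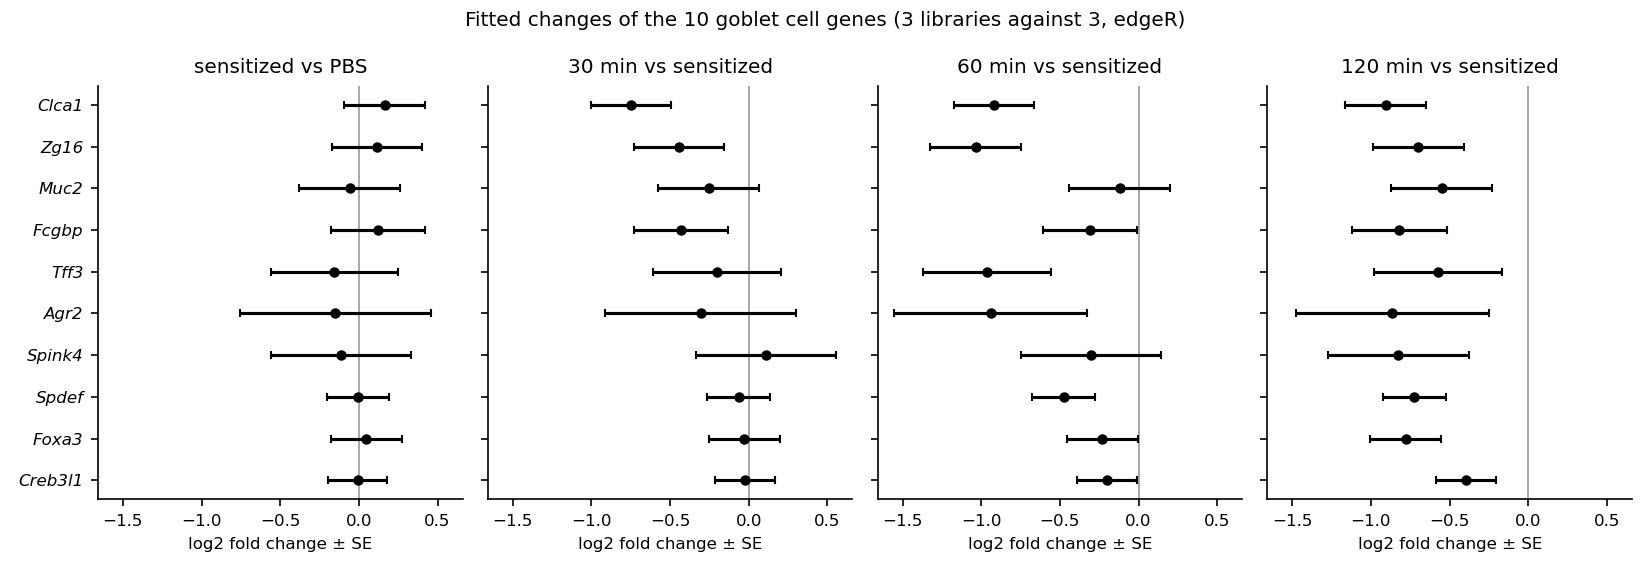
Log2 fold change with its standard error (x axis) of each goblet cell gene (y axis) in 4 comparisons of 3 libraries against 3, fitted with edgeR. Values lie around 0 for sensitization, from -0.75 to 0.11 at 30 min, from -1.04 to -0.12 at 60 min and from -0.91 to -0.40 at 120 min.

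At 30 min 9 of the 10 had negative values, as did 48.8% of all genes, with a median of -0.23. All groups overlapped, 7.84% of all genes were lower without overlap and 0% passed. At 60 min all 10 were negative with a median of -0.39, against 52.3% of all genes. Clca1, Zg16 and Spdef were lower without overlap, as were 9.14% of all genes, while 0.00668% of genes passed. Between 30 and 60 min 8 of the 10 were negative with a median of -0.31, against 52.9% of all genes. Without 30 min replicate 1 only 4 of the 10 were negative there and the median was 0.018. Spdef alone was lower without overlap (-0.41 ± 0.20, adjusted p = 0.863), against 3.75% of all genes and 0% passing. Between 60 and 120 min 6 of the 10 were negative with a median of -0.22, against 50.5% of all genes. Foxa3 (-0.55 ± 0.23, adjusted p = 0.199) and Creb3l1 (-0.20 ± 0.19, adjusted p = 0.593) were lower without overlap there, against 9.78% of all genes, and 1.12% of genes passed. From 30 to 120 min all 10 were negative with a median of -0.38, against 51.2% of all genes. Fcgbp, Spink4, Spdef, Foxa3 and Creb3l1 were lower without overlap, against 10.1% of all genes, and 1.01% passed. The lowest adjusted p there were 0.112 for Foxa3 and 0.114 for Spdef. With 30 min replicate 1 left out, only 7 of the 10 were negative from 30 to 120 min and the median was -0.17. When the 3 times were tested jointly against the controls, the lowest adjusted p was 0.137, for Clca1, and 0.521% of all genes passed.

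The count of genes past the threshold depended on the tool. DESeq2 called Clca1 and Zg16 at 60 min (adjusted p of 0.0281 and 0.0225) and Clca1, Spdef and Foxa3 at 120 min (0.0129, 0.0224 and 0.0318), all lower, in runs that called 189 and 815 genes in all where edgeR called 1 and 188. limma-voom called none of the 10, with 0 and 167 genes called. The comparisons with the sensitized controls share those 3 libraries. Against the PBS mice instead, all 10 genes were also negative at 120 min, and the lowest adjusted p was 0.0782.

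At 60 min the size of the differences followed transcript length in 2 libraries. Over 8334 genes with a mean of at least 10 CPM, the shortest 20% (up to 1509 bases) had a median log2 deviation of -0.38 from each gene's median level in 60 min replicate 3, and the longest 20% (from 4187 bases) one of 0.31. In 60 min replicate 2 these values were -0.18 and 0.20. In the other 13 libraries the shortest 20% stayed between -0.08 and 0.12 and the longest 20% between -0.11 and 0.11. Smaller trends of both signs were among them. The values were -0.08 and 0.11 in 30 min replicate 2, and 0.06 and -0.11 in both 30 min replicate 1 and PBS replicate 1. Agr2 (785 bases), Tff3 (493) and Zg16 (682) are short, and 60 min replicate 3 was the lowest of all 15 libraries for each of them. Spink4 (396 bases), the shortest of the 10, was at 89.5 CPM there. Only 120 min replicates 1 and 2 were lower, at 88.4 and 62.6 CPM. In 60 min replicates 1 and 2 it was at 160 and 98.1 CPM, so 60 min replicate 3 was the lowest of its group for Spink4 too. The annotated length of Muc2, 925 bases, comes from short listed transcripts, so its place by length is uncertain. Muc2 was at 1178 CPM in this library, below PBS replicate 1 only. Fcgbp (7432 bases) was at 8864 CPM there, the third highest of the 15. This library also had the largest mitochondrial share.

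**Figure D3:**
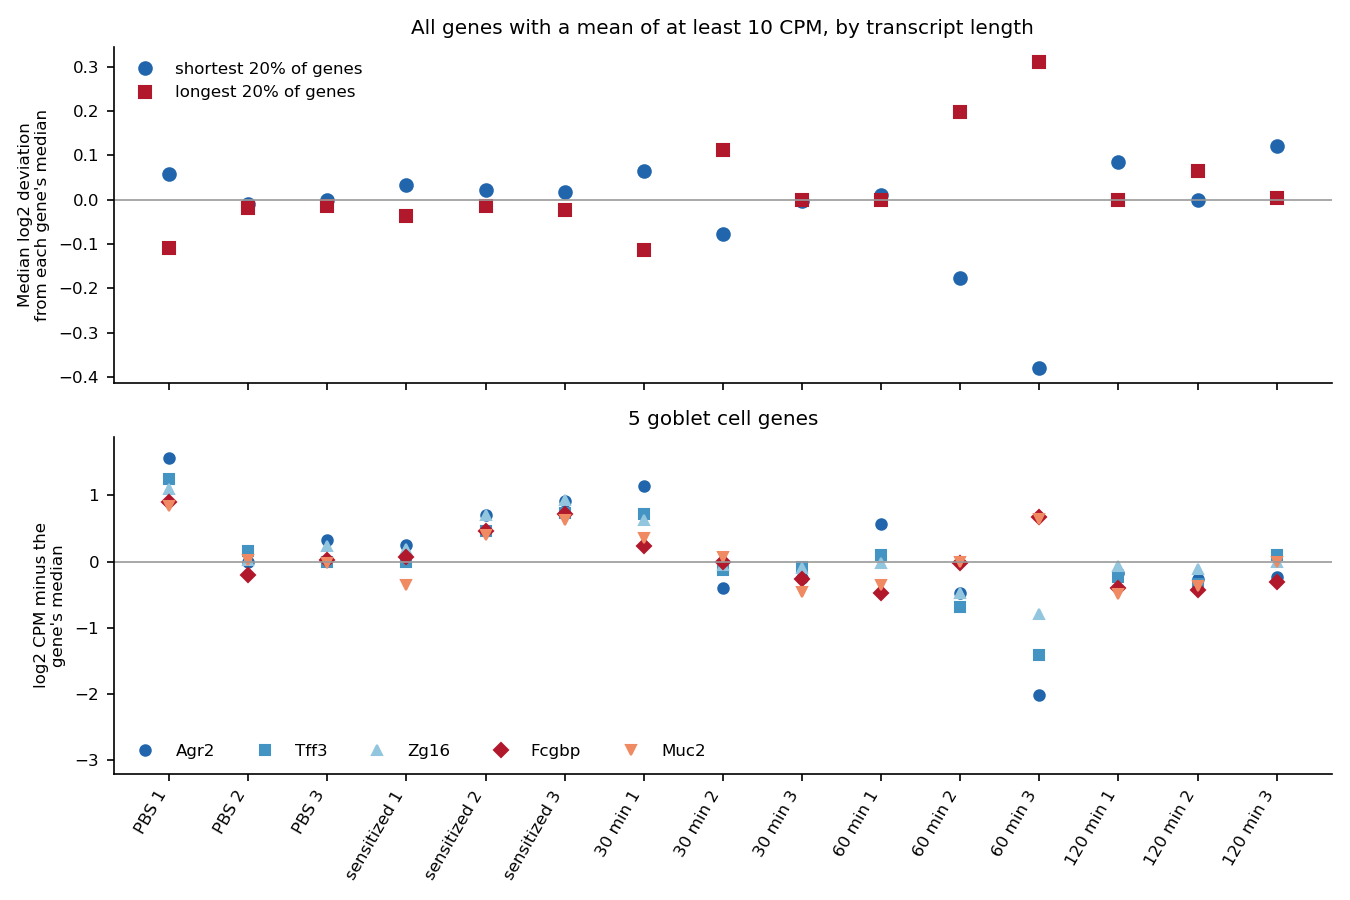
Upper panel, median log2 deviation (y axis) of the shortest and longest 20% of genes in each library (x axis). Lower panel, log2 CPM of 5 goblet cell genes minus the gene's median over libraries. In 60 min replicate 3 the short genes lie at -0.38 and the long genes at 0.31, and Agr2, Tff3 and Zg16 are at their lowest while Fcgbp and Muc2 are high.

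Without 60 min replicate 3, the 60 min log2 fold changes were -0.65 for Tff3, -0.49 for Agr2 and -0.86 for Zg16, and -0.67 for Fcgbp and -0.43 for Muc2. With replicates 2 and 3 both left out, so that 1 library stood for 60 min, Agr2 was at -0.06, Tff3 at -0.31 and Zg16 at -0.64. Clca1 (3655 bases) kept values of -0.94 and -0.90 in these fits. With replicates 2 and 3 both left out Spink4 was at 0.18, against -0.30 with all libraries. A correction for the trend with length gave -1.02 for Clca1, -0.84 for Zg16, -0.64 for Fcgbp and 0.12 for Muc2 at 60 min. It left all 10 genes negative at 120 min with a lowest adjusted p of 0.0662. The corrected value for Muc2 rests on its annotated length of 925 bases, from short listed transcripts, and so is uncertain. Both the leaving out of 2 libraries together and the trend correction were chosen after seeing the data. What set the length trend was not tested.

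Other genes of goblet cells were described from lists. Of 25 other goblet cell products and signature genes, 22 could be tested, and 19, 20 and 21 of them had negative values at 30, 60 and 120 min, with medians of -0.27, -0.51 and -0.69. None of the 22 passed against the controls. Tff2 counts among the negatives at each time, with 0 reads in all 9 challenged libraries and in 2 of the 3 controls. Ang4, an antimicrobial ribonuclease of goblet and Paneth cells, was at 222 ± 100 CPM (SD, n = 3) at 60 min and fell to 49.8 ± 22.4 CPM at 120 min, and this difference passed (log2 fold change -2.15 ± 0.43, adjusted p = 0.0404). Ang4 was at 107 ± 11.3 CPM in the sensitized controls. It is also on the list of Paneth cell markers. From 60 to 120 min all 9 tested Paneth markers, Ang4 among them, were negative, with a median of -1.47. Of these 9, 4 passed, Ang4 included, where 1.12% of all genes passed. The 10 goblet genes had a median of -0.22 there and none passed. The part of Paneth cells in the Ang4 difference was not tested.

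The enzymes that build mucin sugars showed no common sign. Of 22 genes for O-glycosylation and sugar supply tested, 11 were negative and 11 positive at 120 min, with a median of -0.00. Galnt12, which starts O-glycan chains, had a log2 fold change of -0.72 ± 0.19 and Uap1, which makes UDP-N-acetyl sugars, one of -0.49 ± 0.13, while B3gnt7, which extends chains, had 0.88 ± 0.23, with adjusted p of 0.0682, 0.0715 and 0.0715. Of 24 genes for folding and export in the endoplasmic reticulum, 18, 20 and 21 were negative at 30, 60 and 120 min, with medians of -0.14, -0.27 and -0.27. The chaperone Hspa5 was at 1444 ± 107 CPM in the controls and at 867 ± 49.6 CPM at 60 min (-0.74 ± 0.15, adjusted p = 0.175), and its co-chaperone Dnajb9 and the endoplasmic reticulum stress protein Creld2 were at -0.74 ± 0.16 and -0.86 ± 0.20 then. No gene of these 2 lists passed.

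Of 14 tested regulators of the secretory lineage, 10 were negative at 60 min and 10 at 120 min. The Notch ligands Dll1 and Dll4 had log2 fold changes of -0.88 ± 0.21 and -0.79 ± 0.29 at 60 min, and the secretory lineage factor Gfi1, at 1.15 ± 0.247 CPM in the controls and 0.386 ± 0.0335 CPM at 120 min, had -1.56 ± 0.43 (adjusted p = 0.0866). Among 5 tested mucins other than Muc2, the membrane mucin Muc3 was at 175 ± 20.1 CPM in the controls and 251 ± 51.5 CPM at 120 min (0.52 ± 0.20, adjusted p = 0.185). The membrane mucin Muc4 had 0.55 ± 0.23 at 60 min and -0.20 ± 0.23 at 120 min, and for Muc20, another one, these values were 0.59 ± 0.69 and -1.15 ± 0.72. Of 14 genes for mucus release, hydration and processing, 7 were negative and 7 positive at 120 min. The exocytosis gene Sytl4 had -0.80 ± 0.29 then, and the bicarbonate transporter Slc4a4 had 0.50 ± 0.17 (adjusted p of 0.165 and 0.143). Of 4 tested receptor and signalling genes for type 2 cytokines and interleukin 22, 3 were positive at 120 min. Il13ra1 had -0.19 ± 0.15, Stat6 0.12 ± 0.11 and Il22ra1 0.46 ± 0.23. None of these passed against the controls.

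**Figure D4:**
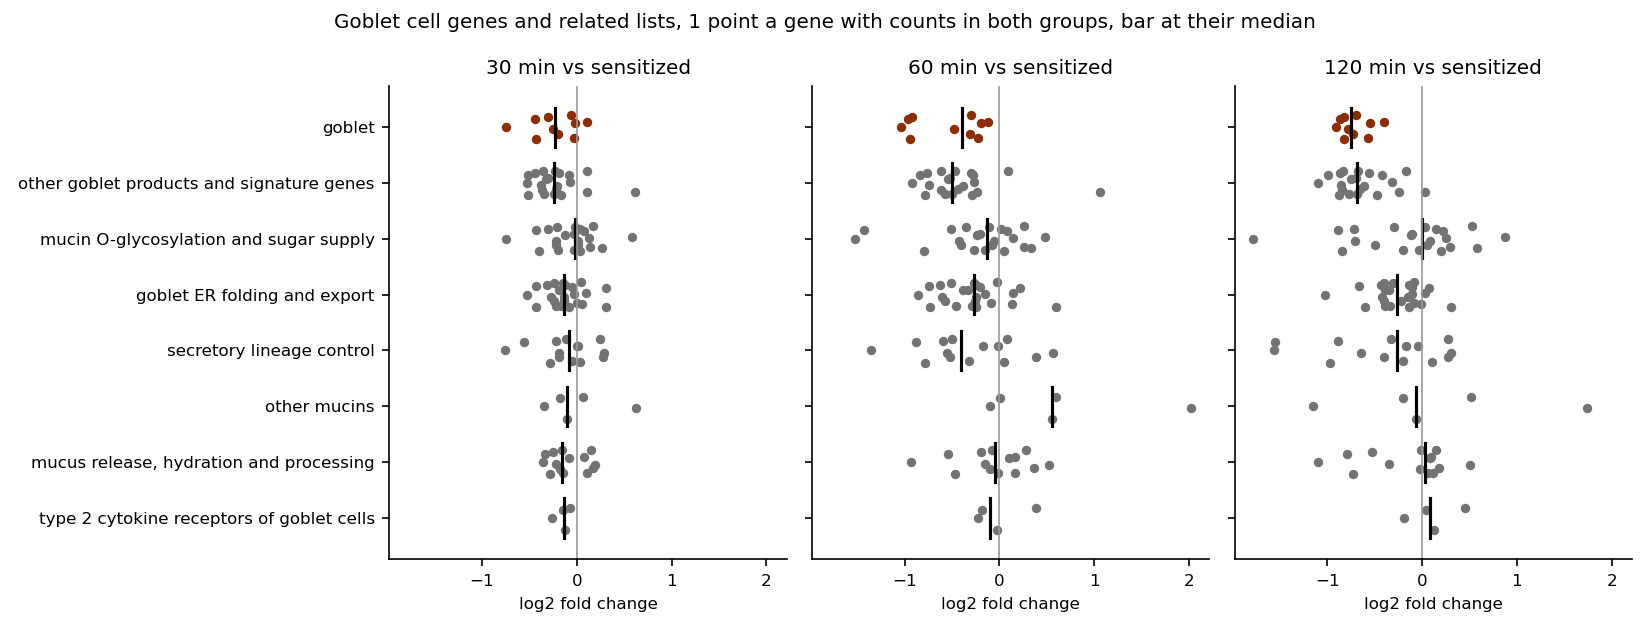
Log2 fold change (x axis) at 3 times against the sensitized controls for the 10 goblet cell genes and 7 related lists (y axis). Each point is a gene with counts in both groups, which leaves out Tff2, and bars are medians of the points. At 120 min the goblet genes and the other goblet signature genes lie mostly below 0 while the glycosylation genes lie on both sides.

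Levels of markers of other cells are given here beside those of the goblet genes, and no marker passed against the sensitized controls at any time. Summed Paneth cell markers were at 4066 to 4891 CPM in the sensitized controls and 1860 to 3787 CPM at 120 min, with negative values for all 9 tested of 10. Lymphocyte markers were at 51.2 to 224 CPM and 17.4 to 53.5 CPM, with negative values for 9 of 9, and B and plasma cell markers were at 779 to 1096 CPM and 103 to 359 CPM, with negative values for 6 of 6. Enteroendocrine markers were at 157 to 195 CPM and 79.7 to 168 CPM, with 8 of 10 negative. Epithelial markers were at 12268 to 12656 CPM and 13877 to 14305 CPM, with 7 of 8 positive, and 7 of 12 enterocyte markers were positive. Mast cell markers were at 27.9 to 46.9 CPM and 19.0 to 25.2 CPM, with 3 of 3 tested negative. Erythroid markers were at 125 to 179 CPM and 77.5 to 87.3 CPM, with 5 of 5 negative. Proliferation markers were at 422 to 513 CPM and 551 to 828 CPM, with 10 of 10 positive, and 5 of 6 stem cell markers were negative. In these 10 lists 1 mast cell marker was at 0 in all 120 min libraries.

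At 60 min, when all 10 goblet genes were negative, so were 8 of 8 epithelial markers (median -0.28), 11 of 12 enterocyte markers (-0.21), 10 of 10 enteroendocrine markers (-0.46) and 5 of 5 erythroid markers (-1.19). Paneth markers had the opposite sign, with 9 of 9 positive and a median of 0.63. So did 9 of 10 proliferation markers (median 0.51) and 6 of 7 macrophage and dendritic cell markers (0.39). Of the lymphocyte markers 8 of 9 were negative (-0.46). At 30 min 12 of 12 enterocyte markers (-0.48), 8 of 8 epithelial markers (-0.15) and 5 of 5 erythroid markers (-2.05) were negative, while 9 of 9 Paneth markers were positive (0.63). Positive too were 9 of 10 proliferation (0.61), 7 of 7 macrophage and dendritic cell (0.60) and 8 of 9 lymphocyte markers (0.16). The 6 tested stromal and endothelial markers were all positive (3.98), with a high sum in replicate 1 alone. The part of these cells in the goblet gene levels was not tested.

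Across the 15 libraries the goblet genes followed each other to differing degrees. With Muc2 as the reference, 9 relations were computed on log2 CPM, with 2-sided permutation tests and Benjamini-Hochberg adjustment over the 9. Fcgbp followed Muc2 most closely, with r = 0.92 (permutation p = 1e-05, the smallest the resamples can give, adjusted p = 9e-05) and rho = 0.82 (permutation p = 0.00033, adjusted p = 0.00297). Clca1 had r = 0.70 (permutation p = 0.00399, adjusted p = 0.0172) and rho = 0.53 (permutation p = 0.0451, adjusted p = 0.0676). Creb3l1, Foxa3, Spdef and Spink4 had r of 0.67, 0.64, 0.64 and 0.61 (permutation p of 0.00581, 0.00765, 0.00977 and 0.0154) and rho of 0.57, 0.70, 0.57 and 0.55 (permutation p of 0.0291, 0.00446, 0.0285 and 0.0357). By the adjusted permutation p of r, these 4, Clca1 and Fcgbp passed 0.05. By that of rho only Fcgbp and Foxa3 (adjusted p = 0.0201) passed, and Creb3l1, Spdef and Spink4 were each at 0.0643. The share of all tested genes that reach r of 0.61 or more with Muc2 is not given here. These relations are therefore not shown to be particular to goblet cell genes.

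Zg16, Tff3 and Agr2 did not reach an adjusted p under 0.05 by either measure, with r of 0.46, 0.32 and 0.22 (permutation p of 0.0883, 0.244 and 0.439) and rho of 0.45, 0.45 and 0.31 (permutation p of 0.0966, 0.0909 and 0.265). These 3 followed each other more closely, with r of 0.96 for Tff3 and Agr2, 0.95 for Zg16 and Tff3 and 0.92 for Zg16 and Agr2. They were not a separate set. With Zg16, Tff3 and Agr2 in turn, Clca1 had r of 0.86, 0.71 and 0.69, and Spink4 0.76, 0.76 and 0.77. Creb3l1 had 0.80, 0.74 and 0.76, and Spdef 0.76, 0.73 and 0.67. The values were lower for Foxa3 (0.53, 0.50 and 0.43) and Fcgbp (0.50, 0.31 and 0.24). The low relation of Zg16, Tff3 and Agr2 to Muc2 rested on few libraries. Without PBS replicate 1 and 60 min replicate 3, the 2 libraries farthest from the median of Muc2, r was 0.73 for Zg16, 0.69 for Tff3, 0.58 for Agr2 and 0.86 for Fcgbp. Without 60 min replicates 2 and 3 it was 0.90, 0.90, 0.77 and 0.91. On the residuals from the 5 group means, r was 0.93 for Fcgbp and 0.75 for Clca1. All of these points share the libraries' depth, transcript length trend and cell makeup.

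**Figure D5:**
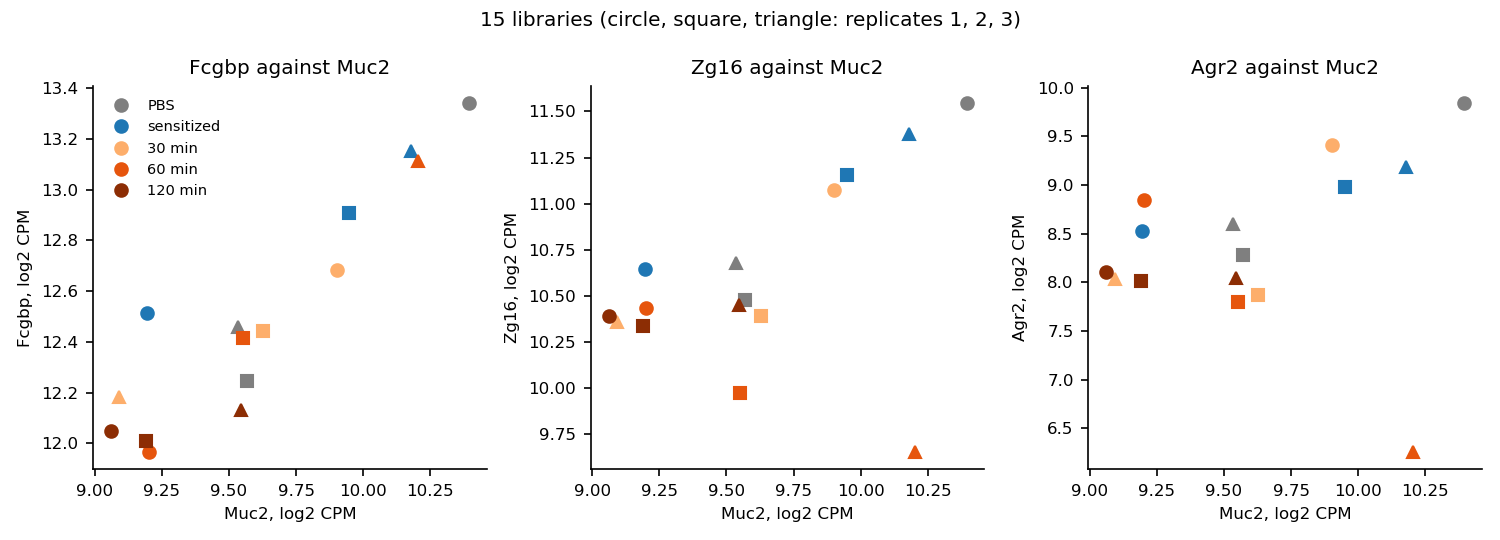
Log2 CPM of Fcgbp, Zg16 and Agr2 (y axes) against Muc2 (x axis) in the 15 libraries, coloured by group. Fcgbp is higher where Muc2 is higher (r = 0.92), while 60 min replicate 3 lies far below the other libraries for Zg16 and Agr2.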

How the data were processed

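Per the labels' protocols, a jejunal segment of 4 cm, 6 cm from the pylorus, spent 75 min in EDTA (2 mM) and DTT (0.5 mM) before the epithelium was shaken off. The submitters' processing notes name cutadapt 1.18, Salmon 1.2.1 and mm10 for reads of 151 bp, but no annotation release. The authors' tables give, per the file headers, an estimated count and a TPM for each of 139058 transcripts.

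From these, estimated counts were summed to 52844 genes with GENCODE M21 (137943 IDs matched, 1115 did not and held 0.374% to 0.602% of counts) and rounded. Of 28797 genes with any count, filterByExpr kept 14968. All 15 libraries were fitted with edgeR 4.0.16 in R 4.3.3 (TMM, robust quasi-likelihood F test, 1 mean per group, 10 residual degrees of freedom), and p-values were adjusted over all genes by Benjamini-Hochberg. A gene passed at an adjusted p under 0.05. CPM uses TMM-scaled totals, and log2 CPM a prior count of 2. TPM as deposited was summed per gene and served only to compare levels between genes. Alternatives used DESeq2 1.42.0 and limma 3.58.1, other scalings, no filter, a length offset, PBS mice as control and left-out libraries. The test was also run on simulated counts built from the means, library sizes and spread of these data. The design text names 15 mice, 3 per group. The edgeR p-values rest on the spread between mice within groups, estimated over all 5 groups together.

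The 10 genes and the related lists were chosen with earlier results of these data known. From each related list, genes past the threshold in any comparison are named, or otherwise up to 3 in order of the joint p, and Tff2 was added after its counts were seen. The result of 1 gene that this rule names is not reported here.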

Additional observations from a re-analysis of the deposited data

How the results depend on the processing

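No gene of the 10 passed in any comparison under another scaling, without the mitochondrially encoded genes, with limma-voom, with either correction for length, with PBS mice as the control or with any single library left out. DESeq2 called 2 genes at 60 min, 3 at 120 min, 1 over the mean of the times (Clca1, adjusted p = 0.0116), 3 jointly (Clca1, Zg16 and Spdef) and 2 between 30 and 120 min (Spdef and Foxa3), where its totals over these last 3 were 158, 1082 and 838 of 14968 genes. Without the low-count filter 2 passed at 120 min (Spdef and Foxa3, adjusted p of 0.0425 and 0.0377) among 282 of 28797 genes, and with only the groups compared 1 passed there (Agr2) among 134 of 13732. The cause of these differences was not tested.

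All 10 genes stayed negative at 120 min under all alternatives run. With single libraries left out the median there ran from -0.88 to -0.60, and the number of all genes called from 7 to 240, fewest without sensitized replicate 3. At 60 min that number ran from 0 to 385, highest without 60 min replicate 1. For sensitization the median ran from -0.16 to 0.39, at 30 min from -0.48 to -0.038, at 60 min from -0.56 to -0.30, and from 30 to 60 min from -0.40 to 0.018, highest without 30 min replicate 1.

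Sign changes were confined to fold changes that passed nowhere. With single libraries left out, those that changed sign ranged as follows. For sensitization Clca1 -0.034 to 0.45, Zg16 -0.083 to 0.51, Muc2 -0.27 to 0.28, Fcgbp -0.084 to 0.53, Tff3 -0.39 to 0.34, Agr2 -0.43 to 0.48, Spink4 -0.40 to 0.47, Spdef -0.16 to 0.20, Foxa3 -0.11 to 0.33 and Creb3l1 -0.16 to 0.26. At 30 min Spink4 -0.42 to 0.40, Spdef -0.21 to 0.039, Foxa3 -0.14 to 0.078 and Creb3l1 -0.19 to 0.099. At 60 min Muc2 -0.43 to 0.10. From 30 to 60 min Clca1 -0.27 to 0.069, Muc2 -0.20 to 0.35, Fcgbp -0.25 to 0.37, Agr2 -1.38 to 0.035, Spink4 -0.70 to 0.13 and Creb3l1 -0.30 to 0.0013. From 60 to 120 min Clca1 -0.086 to 0.068 and Agr2 -0.38 to 0.81. From 30 to 120 min Clca1 -0.29 to 0.053, Zg16 -0.38 to 0.0010 and Agr2 -0.84 to 0.086.

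With the effective-length offset the sign differed for Muc2 0.015 for sensitization, Creb3l1 0.031 at 30 min, Muc2 0.13 at 60 min, Fcgbp -0.018 from 30 to 60 min and Clca1 -0.026 from 60 to 120 min. With limma-voom the sign differed for Spdef 0.0080 and Creb3l1 0.018 for sensitization. With PBS mice as control the sign differed for Spink4 -0.0022 and Foxa3 0.020 at 30 min. With the length trend correction the sign differed for Muc2 0.12 at 60 min, Fcgbp -0.15 from 30 to 60 min and Agr2 -0.026 from 60 to 120 min. Values of Muc2 under the length corrections rest on its short annotated transcripts and are uncertain. Without 60 min replicates 2 and 3 the sign differed for Spink4 0.18 at 60 min, Muc2 -0.37, Fcgbp -0.47, Agr2 0.24 and Spink4 0.065 from 30 to 60 min and Clca1 -0.0079, Zg16 -0.062, Muc2 0.057, Fcgbp 0.074, Tff3 -0.27 and Agr2 -0.81 from 60 to 120 min. Without mitochondrial genes the sign differed for Clca1 -0.014 from 60 to 120 min. With only the groups compared the sign differed for Clca1 -0.0081 from 60 to 120 min.

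The effective-length offset lowered r with Muc2 to 0.57 for Clca1, 0.55 for Spink4, 0.34 for Spdef, 0.46 for Foxa3 and 0.56 for Creb3l1. All of these then had an adjusted permutation p above 0.05, as did Spink4 on the residuals from group means (0.53). For Fcgbp the offset lowered r from 0.92 to 0.75 (adjusted permutation p = 0.00981). The offset for Muc2 itself rests on its short annotated transcripts. Without the 2 libraries farthest from the median of Muc2, r for Zg16, Tff3 and Agr2 was 0.73, 0.69 and 0.58, and without 60 min replicates 2 and 3 it was 0.90, 0.90 and 0.77. No paired analysis was possible because the labels give no replicate numbers that groups share.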

Other observations

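The genes whose log2 CPM followed that of Muc2 most closely across the 15 libraries, among 10775 other genes whose mean was 2 CPM or more, were Galnt5 (r = 0.96, rho = 0.93), Atp2a3 (r = 0.89), Dnajc10 (r = 0.88), Chrm1 (r = 0.88), Ergic1 (r = 0.88) and Tor3a (r = 0.86). Galnt5 encodes an enzyme that starts mucin-type O-glycan chains, Atp2a3 a calcium pump of the endoplasmic reticulum and Dnajc10 a disulfide reductase of the same compartment. Galnt5 was at a mean of 18.6 CPM and Atp2a3 at 213 CPM. For Clca1 the closest were Spats2l (r = 0.90), Rasa4 (r = 0.90), Bace2 (r = 0.89), Capn9 (r = 0.89), Hgfac (r = 0.89) and Slc2a10 (r = 0.88). Bace2, Capn9 and Hgfac are also on the list of other goblet cell signature genes. These are descriptions over libraries that share depth, length trend and cell makeup, and 0 genes are on both lists of 6.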
